A study of Mus musculus with 36 samples.

Results

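The myeloid C-type lectin receptors considered here are the products of 9 genes, Clec4a1, Clec4a2, Clec4a3, Clec4d, Clec4e, Clec4n, Clec5a, Clec7a and Clec12a, out of 40354 genes in the count tables. They were chosen by symbol as cell-surface lectins of macrophages and related phagocytes, and each was found in both count tables and both log2 tables. All 9 passed the low-count filter in every fit. Their RNA was measured while B cells were converted into macrophages (B cell to macrophage transdifferentiation, BMT) by the transcription factor C/EBPα.

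Pre-B cells from the bone marrow of C57BL/6J mice carried a C/EBPα-ER-hCD4 retrovirus, in which C/EBPα is fused to a hormone-binding domain of the estrogen receptor and stays outside the nucleus until estradiol (E2) is added. The constructs were wild-type C/EBPα and its mutants R35A and R35K, which replace the arginine at that position by alanine or by lysine. Cells were grown on inactivated mouse embryo fibroblasts and harvested 0, 1, 3, 6, 18 or 120 hours post induction (hpi). The 18 groups have 2 biological replicates each, which gives 36 libraries. The groups share the factor's overexpression from a virus, the feeder layer and a starting medium with IL-7, IL-3, FLT-3, mCSF-1 and mSCF. Since the medium was later renewed without IL-7, time and medium cannot be told apart at 120 hpi. Before that, the study cultured the primary B cells on S17 feeder cells. It describes removing feeder cells by adherence to culture dishes for its phagocytosis assay, and its methods name no such step for RNA sequencing. RNA of fibroblast markers was found, as given below. The mice's age is not given in the sources used here. Cells at 0 hpi were infected but not induced, and no group with estradiol and without the factor was analysed here. The labels call the cells B-cells up to 18 hpi and macrophages at 120 hpi.

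C-type lectin receptors bind sugars or lipids on fungi, bacteria and damaged cells. Activating members signal through short tyrosine motifs, either in their own tail or in a partner chain such as FcRγ (Fcer1g) or DAP12 (Tyrobp), to the kinase Syk and then through Card9, Bcl10 and Malt1 to NF-κB. Inhibitory members carry a different tyrosine motif that recruits phosphatases such as SHP-1 (Ptpn6). Macrophages, neutrophils and dendritic cells are their main carriers, and several of them are used as surface markers of these cells.

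All 9 genes lie on mouse chromosome 6 (mm10). In the annotation, Clec4a1 (chr6:122921848-122934619), Clec4a3 (chr6:122952515-122969875), Clec4a2 (chr6:123106428-123143999), Clec4n (chr6:123229843-123247021), Clec4d (chr6:123262111-123275265) and Clec4e (chr6:123281789-123289870) form a cluster, all on the + strand except Clec4e. Clec12a (chr6:129342691-129365303, + strand) and Clec7a (chr6:129461591-129472779, - strand) are neighbours in a second cluster, and Clec5a (chr6:40574894-40585821, - strand) stands alone. The annotation used here, GENCODE vM21, lists Clec7a as a polymorphic pseudogene and the others as protein coding. Since these genes arose by duplication, reads of one could be assigned to another. Of all exact windows of 50 bases in their transcripts, 6.69% of those of Clec4a2 occur in another gene as well, against 0.686% for Clec4n, 0.402% for Clec12a and 0 for the other 6. No window was shared between any of the 9 genes. Those of Clec4a2 were shared with many genes outside the 9, among them Clec4a4 and Clec4b1 of the cluster.

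Stretches of 250 bases upstream of the start were read from RefSeq (GRCm38.p6, the same sequence as mm10) for 8 of the 9 genes. Clec4n has no entry. They were searched on both strands for a C/EBP-like motif (TTGCNNAA), a PU.1-like motif (AGGAAGT) and an AP-1-like motif (TGANTCA). PU.1 is the partner of C/EBPα in macrophage gene activation, and AP-1 factors are known to pair with C/EBP proteins. Only Clec4e and Clec12a held any of them, and their stretches are shown for that reason, 5′ to 3′ along the gene, with matches in capitals. The stretch of Clec4e lies at chr6:123289872-123290121 on the - strand and that of Clec12a at chr6:129349994-129350243 on the + strand, inside the gene as GENCODE draws it.
Clec4e: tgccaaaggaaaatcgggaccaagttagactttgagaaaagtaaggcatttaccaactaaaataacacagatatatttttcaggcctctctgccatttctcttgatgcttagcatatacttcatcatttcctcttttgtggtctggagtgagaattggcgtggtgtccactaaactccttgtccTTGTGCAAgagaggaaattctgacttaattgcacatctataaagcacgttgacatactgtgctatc
Clec12a: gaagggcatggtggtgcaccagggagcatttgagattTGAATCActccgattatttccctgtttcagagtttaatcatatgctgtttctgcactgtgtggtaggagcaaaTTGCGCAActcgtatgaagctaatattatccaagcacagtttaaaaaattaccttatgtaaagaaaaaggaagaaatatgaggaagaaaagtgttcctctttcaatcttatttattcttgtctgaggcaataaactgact
The C/EBP-like match of Clec4e begins 66 bases before the start. That of Clec12a begins 140 bases before it and reads the same on both strands, and an AP-1-like match begins 213 bases before it. Among 32851 annotated starts, 9.56% had the C/EBP-like motif in a stretch of this length, 6.75% the AP-1-like motif and 7.69% the PU.1-like motif, of which none was found in the 8 genes. These matches describe letters in the stretch and are not measured binding.

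Reads counted on genes amounted to 13044456 to 23131776 per library, with a median of 15471229.5. Levels are given as CPM, the counts of a gene scaled to a common library size, after TMM normalization over the 36 libraries, as mean ± SD of 2 libraries or as the values of both. At 0 hpi, 0 of the 9 genes were called different between R35A and wild-type cells or between R35K and either, by edgeR's quasi-likelihood test, and DESeq2's Wald test called 0 as well. A call is a change of at least 1.5-fold with an adjusted p of at most 0.05. The share of all genes called at 0 hpi was 0% for both mutants against wild type and 0.00579% for R35K against R35A. At an unadjusted p of at most 0.05, the same comparisons gave 0, 1 and 0 of the 9 genes.

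The labelled cell types were checked against marker lists. All 8 macrophage markers were higher and all 8 B cell markers lower at 120 hpi than at 0 hpi in each construct. In wild-type cells, the summed level of the macrophage markers went from 67.7 to 69.9 CPM at 0 hpi to 17019.6 to 17349 CPM at 120 hpi, while the B cell markers went from 3959 to 4019.8 CPM to 190.05 to 197 CPM. RNA of other cells was also present. Of 8 fibroblast markers, 7 were lower and 1, Fn1, higher at 120 than at 0 hpi in wild-type cells. Their summed level was 5609.7 to 5742 CPM at 0 hpi and 8666 to 8703 CPM at 1 hpi. It was 14104 to 14514 CPM at 18 hpi and 9828 to 9945 CPM at 120 hpi. Fn1, which macrophages also express, made up 9754 CPM at 120 hpi. Lum was at 0 at 120 hpi in all constructs. At 120 hpi, 5 of the 8 fibroblast markers were higher in R35A and in R35K than in wild-type cells. The 8 neutrophil markers of wild-type cells summed to 58.6 to 60.0 CPM before induction, 1.97 to 2.63 CPM at 1 hpi and 9.9 to 10.0 CPM at 120 hpi. At both later timepoints 7 of 7 tested were lower than at 0 hpi. In R35A cells the sum was 46.5 to 47.7 CPM at 0 hpi and 2.52 to 3.23 CPM at 1 hpi. In R35K cells it was 48.1 to 51.4 CPM and 4.19 to 4.28 CPM. These shifts fell in the same hour as the receptors' first rise. The 7 dendritic cell markers went from 17.8 to 19.1 CPM to 193 to 197 CPM, with 3 higher and 2 lower of 5 tested. In wild-type cells at 120 hpi, T and NK cell markers summed to at most 0.353 CPM with 4 of 6 at 0, and mast cell and basophil markers to at most 0.442 CPM with 3 of 4 at 0. In bulk RNA, a larger share of cells that carry a receptor and more RNA per cell cannot be told apart, and the part of other cell types in the results below was not tested.

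**Figure D1:**
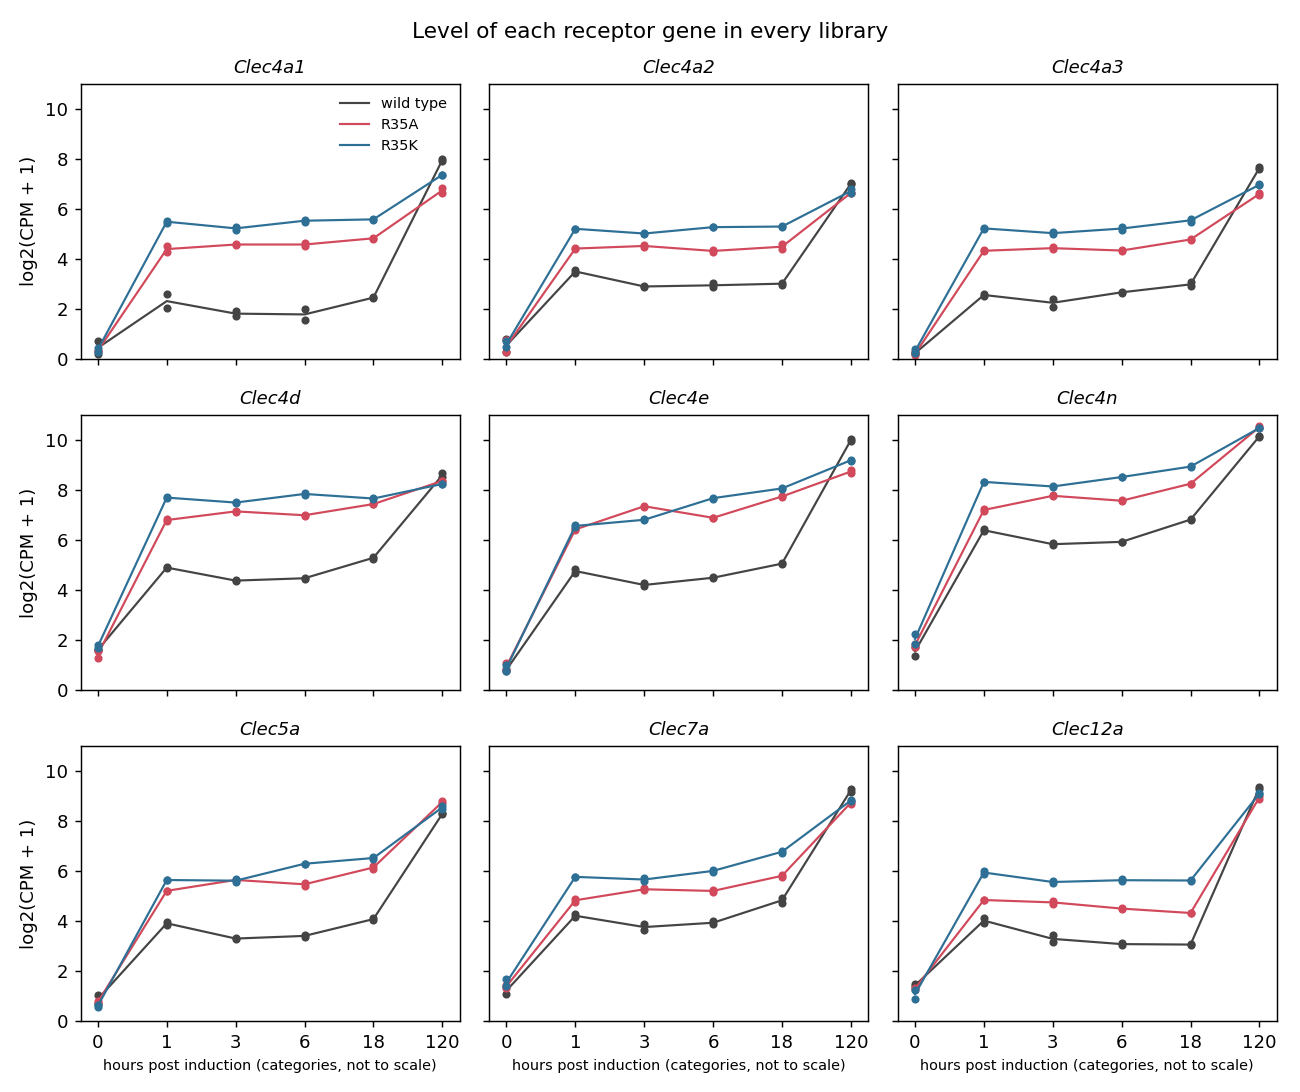
Level of each of the 9 receptor genes, as log2(CPM + 1), by hours post induction for wild-type, R35A and R35K cells; points are the 2 libraries of each group, lines join their means, and the time axis is categorical. All genes start low and rise at 1 hpi in every construct, the mutants lie above wild type from 1 to 18 hpi, and at 120 hpi they lie below it for all genes but Clec4n and Clec5a.

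Among the activating receptors of the cluster, Clec4n had the highest level per kilobase of exon in all 18 groups and Clec4d the next highest. Clec4n encodes Dectin-2, which binds mannose-rich fungal sugars and pairs with FcRγ. Its libraries read 1.57 and 2.35 CPM at 0 hpi, 81.0 and 84.7 at 1 hpi, 54.9 and 57.2 at 3 hpi, 59.6 and 60.1 at 6 hpi, 112 and 111 at 18 hpi and 1116 and 1146 at 120 hpi in wild-type cells. In R35A cells they read 2.61 and 2.34 CPM at 0 hpi, 150.3 and 142 at 1 hpi, 219 and 214 at 3 hpi, 186 and 192 at 6 hpi, 303 and 303 at 18 hpi and 1419 and 1504 at 120 hpi. In R35K cells they read 3.71 and 2.65 CPM at 0 hpi, 317 and 321 at 1 hpi, 283 and 279 at 3 hpi, 360.5 and 369 at 6 hpi, 498 and 477 at 18 hpi and 1438 and 1406 at 120 hpi. Within an hour of induction the level thus rose by 5.42 ± 0.091 (SE, adjusted p = 2.33e-43) on the log2 scale in wild-type, 5.86 ± 0.077 (SE, adjusted p = 1.41e-48) in R35A and 6.58 ± 0.069 (SE, adjusted p = 3.2e-38) in R35K cells. The SEs of these changes from 0 hpi come from the F statistic and understate counting error, since reads at 0 hpi were few. Both libraries of each mutant were above both wild-type libraries at every timepoint from 1 to 120 hpi.

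Clec4d encodes MCL, a partner of Mincle that binds mycobacterial glycolipid. Its libraries read 2.06 and 2.06 CPM at 0 hpi, 28.5 and 29.2 at 1 hpi, 19.4 and 20.3 at 3 hpi, 21.5 and 20.9 at 6 hpi, 36.9 and 39.4 at 18 hpi and 365 and 404 at 120 hpi in wild-type cells. In R35A cells they read 1.47 and 1.97 CPM at 0 hpi, 108 and 112 at 1 hpi, 142 and 139 at 3 hpi, 127 and 125 at 6 hpi, 171 and 173 at 18 hpi and 326 and 329 at 120 hpi. In R35K cells they read 2.55 and 2.21 CPM at 0 hpi, 208 and 204 at 1 hpi, 182 and 177 at 3 hpi, 223 and 234 at 6 hpi, 206 and 196 at 18 hpi and 300.3 and 302 at 120 hpi. Both libraries of each mutant lay above those of wild type from 1 to 18 hpi and below them at 120 hpi. In both mutants Clec4d came closest of the 9 genes to its final level early. At 1 hpi it stood at 7.49% of the same construct's 120 hpi level in wild-type, 33.7% in R35A and 68.5% in R35K cells. In R35K cells it was the only member not called higher at 120 than at 18 hpi, at 0.53 ± 0.04 (SE, adjusted p = 4.84e-14), and its level at 6 hpi, 228 ± 7.70 CPM, was above that at 18 hpi, 201 ± 7.05 CPM.

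Clec4e encodes Mincle, the receptor for mycobacterial cord factor, which is induced by inflammatory stimuli and also pairs with FcRγ. Its libraries read 0.822 and 0.711 CPM at 0 hpi, 24.9 and 27.4 at 1 hpi, 16.7 and 18.24 at 3 hpi, 22.0 and 21.1 at 6 hpi, 31.6 and 33.0 at 18 hpi and 987 and 1051 at 120 hpi in wild-type cells. In R35A cells they read 1.139 and 0.744 CPM at 0 hpi, 83.0 and 86.5 at 1 hpi, 164 and 159.6 at 3 hpi, 117 and 117 at 6 hpi, 208 and 217 at 18 hpi and 411 and 440.1 at 120 hpi. In R35K cells they read 0.695 and 1.01 CPM at 0 hpi, 91.0 and 96.1 at 1 hpi, 112 and 109.8 at 3 hpi, 199 and 206 at 6 hpi, 268 and 263 at 18 hpi and 571 and 591 at 120 hpi. Clec4e had the largest fitted rise from 0 to 120 hpi of the 9 genes in wild-type cells, 10.23 ± 0.085 (SE, adjusted p = 1.36e-58). That SE understates counting error, as the wild-type libraries had 12 and 10 reads of Clec4e at 0 hpi. The libraries of both mutants lay above those of wild type from 1 to 18 hpi and below them at 120 hpi. The fitted level was 6.53-fold the wild-type level at 18 hpi in R35A cells and 0.420-fold at 120 hpi.

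Clec7a encodes Dectin-1, the receptor for fungal β-glucan, which carries its own signalling motif. Its libraries read 1.57 and 1.138 CPM at 0 hpi, 16.9 and 18.4 at 1 hpi, 13.7 and 11.6 at 3 hpi, 13.7 and 15.1 at 6 hpi, 25.9 and 29.4 at 18 hpi and 576 and 626 at 120 hpi in wild-type cells. In R35A cells they read 1.54 and 1.75 CPM at 0 hpi, 28.8 and 26.5 at 1 hpi, 39.0 and 36.6 at 3 hpi, 35.2 and 36.9 at 6 hpi, 54.1 and 56.5 at 18 hpi and 412 and 439 at 120 hpi. In R35K cells they read 1.68 and 2.21 CPM at 0 hpi, 53.3 and 54.0 at 1 hpi, 51.6 and 48.1 at 3 hpi, 62.0 and 65.1 at 6 hpi, 111 and 106 at 18 hpi and 441 and 463 at 120 hpi. Here too the mutants' libraries lay above those of wild type from 1 to 18 hpi and below them at 120 hpi. Dectin-1 RNA was the least advanced of the activating receptors in the mutants at 1 hpi. It had reached 6.49% of its 120 hpi level in R35A and 11.9% in R35K cells, and the difference between R35A and wild-type cells at that time, 0.60 ± 0.081 (SE, adjusted p = 9.78e-09), was the smallest of the 9. That call was lost without replicate 1 of the wild-type (0.54) or of the R35A cells (0.55) at 1 hpi, and also where the change from 0 hpi was compared (0.31, adjusted p = 0.486).

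Clec5a encodes MDL-1, which couples to DAP12 and takes part in the response to flaviviruses. It went from 0.868 ± 0.322 CPM at 0 hpi to 14.1 ± 0.977 CPM at 1 hpi and 312 ± 5.93 CPM at 120 hpi in wild-type cells. In R35A cells the same timepoints gave 0.707 ± 0.0526, 36.1 ± 0.369 and 434 ± 15.8 CPM, and in R35K cells 0.542 ± 0.0533, 49.1 ± 0.0208 and 374 ± 17.1 CPM. With Clec4n, Clec5a was the other member whose libraries were all higher in the mutants than in wild type at 120 hpi.

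Clec12a encodes MICL, an inhibitory receptor that recognises crystals released by dying cells. Its libraries read 1.78 and 1.64 CPM at 0 hpi, 16.6 and 14.1 at 1 hpi, 9.81 and 7.93 at 3 hpi, 7.65 and 7.36 at 6 hpi, 7.33 and 7.46 at 18 hpi and 629 and 658 at 120 hpi in wild-type cells. In R35A cells they read 1.47 and 1.49 CPM at 0 hpi, 27.9 and 27.8 at 1 hpi, 25.1 and 26.9 at 3 hpi, 22.0 and 21.4 at 6 hpi, 19.2 and 19.1 at 18 hpi and 474 and 512 at 120 hpi. In R35K cells they read 1.39 and 0.882 CPM at 0 hpi, 62.5 and 58.9 at 1 hpi, 47.4 and 45.5 at 3 hpi, 50.2 and 47.5 at 6 hpi, 48.9 and 48.0 at 18 hpi and 553 and 545 at 120 hpi. It was the only member that was lower at 18 than at 1 hpi in all 3 constructs. The log2 change was -1.07 ± 0.10 (SE, adjusted p = 7.08e-13) in wild-type cells, which was called, and -0.54 ± 0.073 in R35A and -0.32 ± 0.053 in R35K cells, which stayed under the 1.5-fold threshold. From 18 to 120 hpi it then rose more than any other member, by 6.32 ± 0.062 (SE, adjusted p = 4.19e-55) in wild-type, 4.59 ± 0.053 (SE, adjusted p = 1.27e-51) in R35A and 3.45 ± 0.047 (SE, adjusted p = 3.23e-35) in R35K cells.

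Clec4a2 encodes DCIR, an inhibitory receptor of dendritic cells and macrophages, and Clec4a1 and Clec4a3 are mouse relatives of it that lack its inhibitory motif. All 3 were close to the limit of detection at 0 hpi. Clec4a3 had 2 and 3 reads in wild-type, 3 and 2 in R35A and 3 and 5 in R35K cells at that time. Since a fitted fold change from so few reads depends on the settings of the fit, the ratio of summed CPM is given with an exact 95% interval for counting error. For Clec4a3 the ratio of 1 to 0 hpi was 28.0 (11.8 to 87.5) in wild-type, 128.0 (54.8 to 397) in R35A and 150.0 (76.0 to 349) in R35K cells. For Clec4a1, with 2 and 9 reads in the wild-type libraries at 0 hpi, it was 10.8 (5.82 to 22.1), 75.3 (39.4 to 165) and 145 (78.7 to 303). For Clec4a2, with 11 and 3 reads there, it was 21.2 (12.5 to 39.2), 42.9 (26.2 to 75.4) and 69.9 (43.5 to 120.0).

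Clec4a1 libraries read 0.137 and 0.640 CPM at 0 hpi, 3.15 and 4.98 at 1 hpi, 2.74 and 2.32 at 3 hpi, 1.96 and 3.01 at 6 hpi, 4.52 and 4.45 at 18 hpi and 240.1 and 253 at 120 hpi in wild-type cells. In R35A cells they read 0.268 and 0.266 CPM at 0 hpi, 21.6 and 18.5 at 1 hpi, 22.4 and 23.3 at 3 hpi, 23.8 and 21.9 at 6 hpi, 27.5 and 27.1 at 18 hpi and 97.8 and 114 at 120 hpi. In R35K cells they read 0.232 and 0.378 CPM at 0 hpi, 45.1 and 42.6 at 1 hpi, 38.2 and 34.5 at 3 hpi, 46.6 and 43.6 at 6 hpi, 47.3 and 46.4 at 18 hpi and 164 and 162 at 120 hpi. The mutants' libraries lay above those of wild type from 1 to 18 hpi and below them at 120 hpi. In wild-type cells the level stayed under 5 CPM to 18 hpi, and the log2 difference of each mutant from wild type at 1 hpi, 2.24 ± 0.14 (SE, adjusted p = 2.03e-19) for R35A and 3.41 ± 0.12 (SE, adjusted p = 1.27e-31) for R35K, was the largest of the 9 genes. Clec4a2 differed less, with 10.3 ± 0.775 CPM in wild-type, 20.3 ± 0.629 CPM in R35A and 35.9 ± 0.405 CPM in R35K cells at 1 hpi, and Clec4a3 had 4.90 ± 0.214, 19.1 ± 0.384 and 36.3 ± 0.647 CPM.

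All 9 genes were called higher than at 0 hpi at every later timepoint in every construct. In wild-type cells the share of all genes called higher was 10.7%, 12%, 15.1%, 23.9% and 23.1% at the 5 later timepoints in order. In R35A cells it was 18.3%, 17.9%, 18.5%, 21% and 24.2%, and in R35K cells 15.5%, 15.9%, 16.3%, 18.4% and 25.4%. The median log2 change of the 9 genes at 1 hpi was 4.02 in wild-type, 5.86 in R35A and 6.43 in R35K cells, and at 120 hpi it was 8.65, 8.47 and 8.79. The median over all genes tested lay between -0.36 and 0.024 in these comparisons. The highest adjusted p of any member was 2.13e-07, for Clec4a1 in wild-type cells at 6 hpi.

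The course between these timepoints was uneven. The tests between 1 and 3 hpi and between 1 and 18 hpi were added after the members' values had been seen. From 1 to 3 hpi in wild-type cells, 6 of the 9 genes were called lower, where 0.683% of all genes were. Clec12a fell by 0.81, Clec4a1 by 0.73, Clec4a2 by 0.70, Clec5a by 0.68, Clec4e by 0.61 and Clec4n by 0.59 on the log2 scale, with adjusted p from 1.91e-13 to 0.0225. The other 3, Clec4a3 (-0.40 ± 0.16), Clec4d (-0.56 ± 0.07) and Clec7a (-0.51 ± 0.10), were not called. In R35A cells 1 of 9 was called higher in this interval, Clec4e at 0.93 ± 0.044 (SE, adjusted p = 1.07e-21), against 0.406% of all genes. In R35K cells 0 of 9 were called in either direction, against 0.347% of all genes, and 7 had an unadjusted p of at most 0.05, with log2 changes of all 9 between -0.38 and 0.25. DESeq2's Wald test also called 0 of the 9 there. Most of the wild-type calls of this interval lay close to the 1.5-fold threshold. That of Clec4n was lost under DESeq2's Wald test (-0.58) and under each other scaling, filter or choice of libraries in the fit (-0.58 to -0.56), and that of Clec4e under the stricter filter, the fit of the compared groups alone and the fit of all 36 libraries (-0.58 in each). Without replicate 2 at 1 hpi, Clec4a1 (-0.34), Clec4e (-0.53) and Clec4n (-0.55) were not called, nor were they without replicate 1 at 3 hpi (-0.85, -0.55 and -0.56), Clec4a1 there by its adjusted p, and Clec4a1 (-0.61) also not without replicate 2 at 3 hpi. Clec4d became a call without replicate 2 at 3 hpi (-0.60) and Clec7a without replicate 1 (-0.63). In R35A cells, Clec4n became a call without replicate 1 at 1 hpi (0.60). From 1 to 18 hpi in wild-type cells, Clec7a was called higher at 0.62 ± 0.082 (SE, adjusted p = 4.26e-09), where 9.83% of all genes were higher, and Clec12a lower, where 15.4% of all genes were. In R35A cells Clec4d, Clec4e, Clec4n, Clec5a and Clec7a were called higher, 5 of 9 against 1.94% of all genes. In R35K cells Clec4e, Clec4n, Clec5a and Clec7a were, 4 of 9 against 3.15%. The wild-type call of Clec7a was lost without replicate 1 at 1 hpi (0.56) or replicate 2 at 18 hpi (0.55), and that of Clec4n in R35K cells with scaling by library totals alone (0.58). Clec4a2 in wild-type cells became a call, lower, with that scaling (-0.60) or without replicate 1 at 1 hpi (-0.65) or at 18 hpi (-0.59). Clec4a1 at 0.45 ± 0.094 (SE, adjusted p = 0.000195) and Clec4a3 at 0.47 ± 0.077 (SE, adjusted p = 2.23e-06) in R35A cells lay under the fold threshold.

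**Figure D2:**
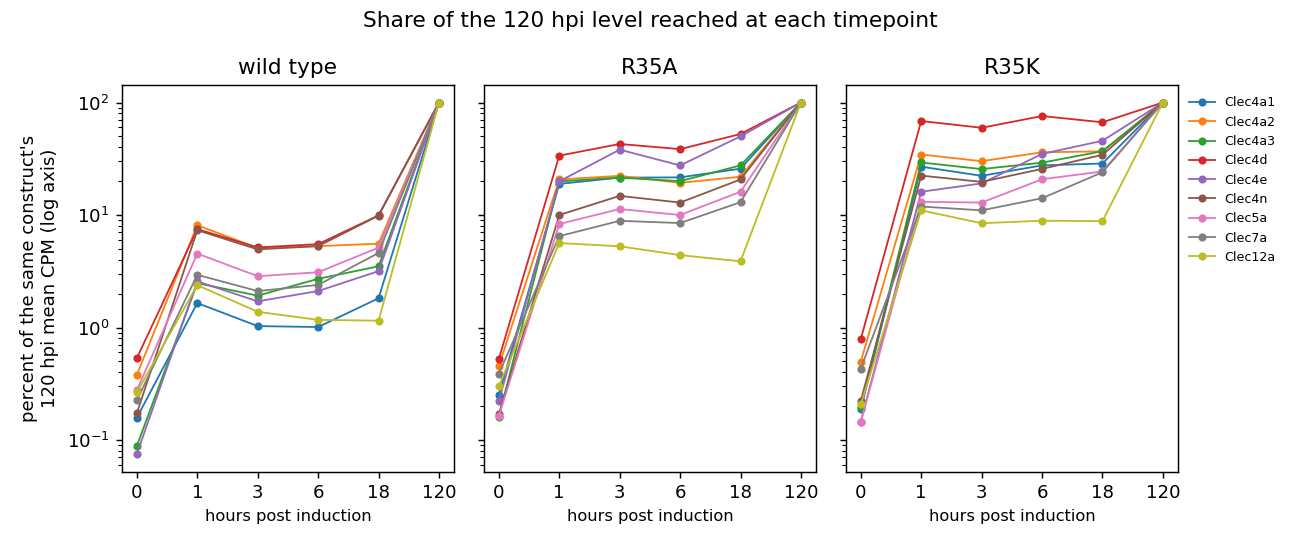
Level of each gene as percent of the same construct's mean CPM at 120 hpi (log axis) at 6 timepoints for wild-type, R35A and R35K cells; each line is a gene. At 18 hpi the 9 genes stood at 1.15% to 9.92% in wild-type, 3.88% to 52.5% in R35A and 8.82% to 66.7% in R35K cells, with Clec12a the lowest line in each.

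As a description, the share of the final level reached early had a higher median in the mutants, where the range of R35A overlapped that of wild type at 1 hpi and the range of R35K did not. At 1 hpi the 9 genes stood at 1.65% to 8.12% of their 120 hpi level in wild-type cells (median 2.94%), 5.64% to 33.7% in R35A cells (median 18.9%) and 11% to 68.5% in R35K cells (median 22.4%). At 18 hpi the medians were 4.60%, 21.9% and 34.3%. These shares depend on each construct's own 120 hpi level, which was below wild type for 7 of the 9 genes in both mutants. As percent of the wild-type 120 hpi level, the medians at 1 hpi were 9.64% in R35A and 17.8% in R35K cells. At 18 hpi they were 16.9% and 26.1%. In wild-type cells most of the final level was thus gained after 18 hpi. From 18 to 120 hpi all 9 genes rose in wild-type cells, where 27.5% of all genes did, and all 9 in R35A cells, where 24.5% did. In R35K cells 8 of 9 rose, where 24.7% of all genes did. With scaling by library totals alone, Clec4d in R35A cells (0.57) was not called. The median log2 rise of the 9 genes in this interval was 4.31 in wild-type, 2.10 in R35A and 1.49 in R35K cells.

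The direct comparison of the constructs asks whether a change at arginine 35 alters when these genes are expressed. At each of 1, 3, 6 and 18 hpi, all 9 genes were called higher in R35A than in wild-type cells, against 8.51%, 7.95%, 6.2% and 6.9% of all genes. All 9 were called higher in R35K than in wild-type cells at the same timepoints, against 9.24%, 8.24%, 9.62% and 10.5%. Both libraries of the mutant lay above both wild-type libraries for each of the 9 genes in these 8 comparisons. The share of all genes separated in this way was not counted. The median log2 difference of the 9 genes for R35A was 1.32, 2.43, 1.84 and 1.91 at these timepoints in order, and for R35K 1.94, 2.43, 2.75 and 2.51. The largest was that of Clec4a1 in R35K cells at 6 hpi, 4.17 ± 0.13 (SE, adjusted p = 9.79e-34), with 45.1 against 2.48 CPM. The R35K libraries were deposited in a table of their own, so for R35K against either other construct, construct and table cannot be told apart. The R35A and R35K comparisons also share their wild-type libraries. Fibroblast markers differed between the constructs as well. Their sum at 18 hpi was 14104 to 14514 CPM in wild-type, 10410 to 10487 CPM in R35A and 8984 to 9280 CPM in R35K. At 1 hpi it was 8666 to 8703, 10461 to 10484 and 7189 to 7477 CPM in the same order. At 18 hpi, 2 of the 8 markers were higher and 2 lower in R35A than in wild-type cells, and 0 and 5 in R35K. Their part in the receptors' differences was not tested. Compared by their change from 0 hpi over 5 timepoints, in place of their level, 31 of 45 differences were called for R35A and 37 of 45 for R35K, against 39 each in the direct comparisons. The share of all genes called by their change from 0 hpi was not counted. At 1 hpi this way of comparing ended 4 of the 9 R35A calls, with differences of 0.97 for Clec4a2, 2.14 for Clec4a3, 0.44 for Clec4n and 0.31 for Clec7a.

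**Figure D3:**
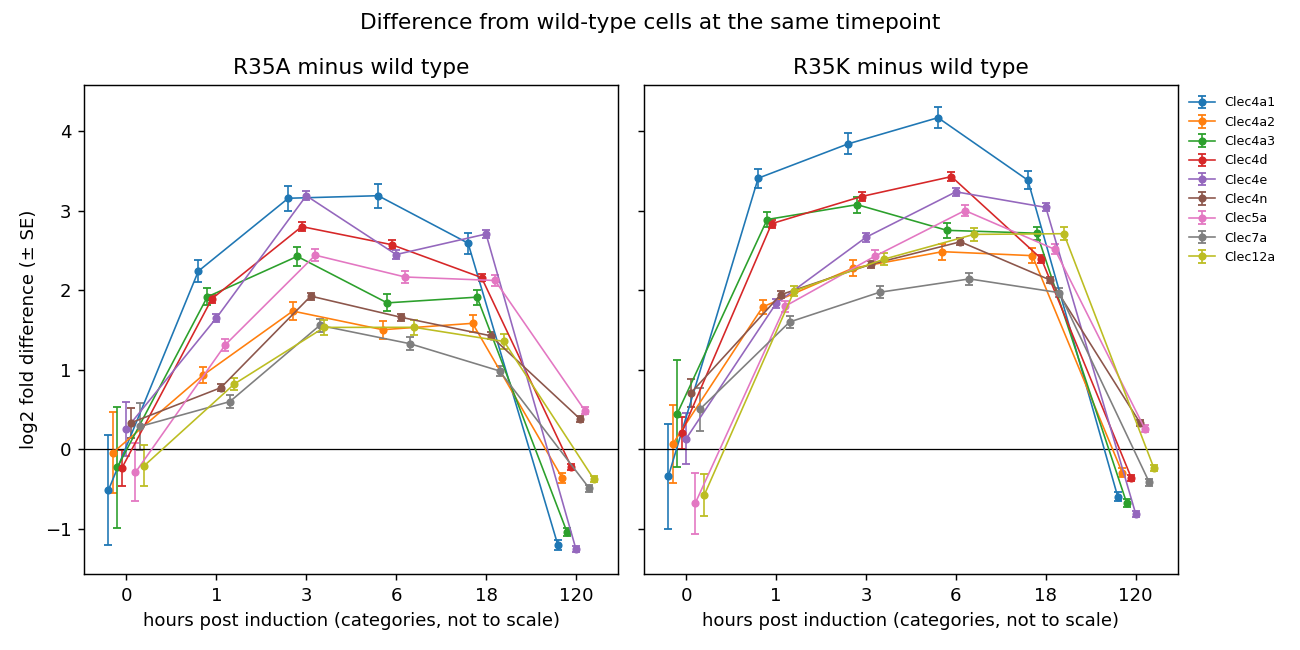
Log2 fold difference from wild-type cells at the same timepoint (± SE of the edgeR fit) for R35A (left) and R35K (right) at the 6 timepoints; each line is a gene. The values scatter around 0 with wide errors at 0 hpi, lie between 0.60 and 4.17 from 1 to 18 hpi, and between -1.25 and 0.49 at 120 hpi.

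R35K and R35A cells also differed. From 1 to 18 hpi, R35K was called higher for 7, 3, 9 and 6 of the 9 genes in order of time, against 5.97%, 3.58%, 7.22% and 3.65% of all genes. At 1 hpi the exceptions were Clec4e, at 0.14 ± 0.046 (SE, adjusted p = 0.0122), and Clec5a, at 0.44 ± 0.059 (SE, adjusted p = 1.05e-08). At 3 hpi Clec4e stood the other way, -0.55 ± 0.043 (SE, adjusted p = 1.6e-15), with 162 CPM in R35A and 111 CPM in R35K cells, a difference below the 1.5-fold threshold although the libraries did not overlap. Clec12a was higher in R35K at each of these 4 timepoints, by 1.12 ± 0.059, 0.83 ± 0.062, 1.17 ± 0.062 and 1.34 ± 0.065. Where the constructs were compared by their change from 0 hpi in place of their level, 8 of 45 differences between the mutants were called. The share of all genes called there was not counted.

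At 120 hpi the order of the constructs had turned for most of the 9 genes. In R35A cells, Clec4a1, Clec4a3 and Clec4e were called lower than in wild-type cells, at -1.20 ± 0.065 (SE, adjusted p = 6.91e-22), -1.03 ± 0.054 (SE, adjusted p = 1.68e-22) and -1.25 ± 0.037 (SE, adjusted p = 2.09e-32), 3 of 9 against 6.38% of all genes. The same 3 were called lower in R35K cells, at -0.59 ± 0.058 (SE, adjusted p = 9.92e-13), -0.67 ± 0.049 (SE, adjusted p = 3.25e-17) and -0.81 ± 0.038 (SE, adjusted p = 2.72e-25), against 3.97% of all genes. The levels in R35A cells were 43.1%, 48.5% and 41.8% of wild type. Clec4a2, Clec4d, Clec7a and Clec12a were below wild type by less than 1.5-fold in both mutants, at 70.7% to 85.4% of its level. Clec4n and Clec5a stood above it by less than 1.5-fold, with Clec4n at 129% in R35A and 126% in R35K cells and Clec5a at 139% and 120.0%. For each of the 9 genes both libraries of a mutant lay on the same side of both wild-type libraries, and all had an unadjusted p of at most 0.05. The shares of all genes that did so were not counted. Within the cluster, Clec4n stood above wild type and the other members below it, but Clec4n, Clec4d and Clec4a2 were not called. By the change from 0 hpi, Clec4n was at 0.04 in R35A and -0.38 in R35K cells, neither of which was called. Beside these differences, the fibroblast marker Col1a1 stood at 29.2 ± 6.71 CPM in wild-type, 111 ± 7.2 CPM in R35A and 84.1 ± 12.6 CPM in R35K cells at 120 hpi, and its part in them was not tested. Between the mutants, only Clec4a1 was called at 120 hpi, higher in R35K by 0.62 ± 0.062 (SE, adjusted p = 1.29e-11), 1 of 9 against 1.4% of all genes. Compared by their change from 0 hpi, where these genes had few reads, Clec4a1 (-0.69) and Clec4a3 (-0.81) were not called lower in R35A than in wild-type cells at 120 hpi. Nor were Clec4a1 (-0.25), Clec4a3 (-1.13) and Clec4e (-0.95) in R35K cells, while Clec7a was called lower in R35A (-0.78) and R35K (-0.91). The calls of Clec4a1 that involve R35K lay near the threshold. The one against wild type was lost without replicate 2 of the wild-type (-0.55) or of the R35K cells (-0.58), with scaling by library totals alone (-0.58) and with no low-count filter (-0.55), and the one against R35A without replicate 1 of the R35A cells (0.51).

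**Figure D4:**
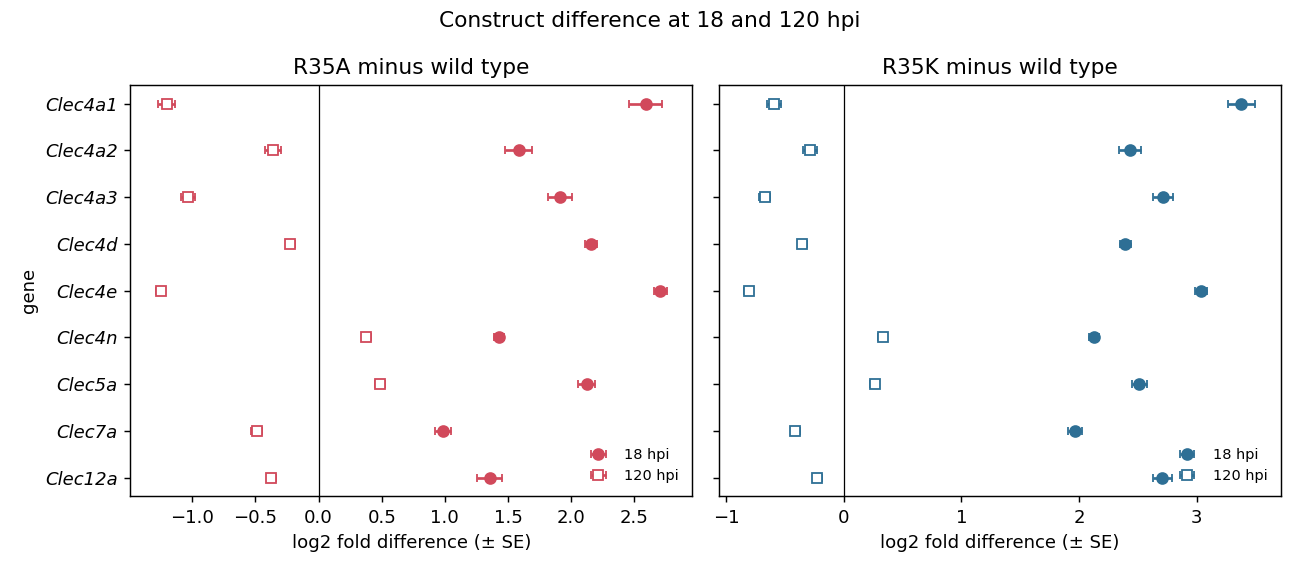
Log2 fold difference from wild type (± SE) of each gene at 18 hpi (filled circles) and at 120 hpi (open squares), for R35A (left) and R35K (right). All 18 hpi values lie to the right of 0 and all shift left by 120 hpi, Clec4n and Clec5a staying to the right of 0.

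The change of the construct difference from 18 to 120 hpi was tested as a contrast of its own, added after the values had been seen. It was negative for all 9 genes in R35A, where 10.6% of all genes were called lower, and for all 9 in R35K, where 12.7% were. The smallest was that of Clec4n, -1.05 ± 0.055 (SE, adjusted p = 2.07e-22) for R35A and -1.80 ± 0.055 (SE, adjusted p = 3.12e-34) for R35K. The largest for R35A was that of Clec4e, -3.96 ± 0.062 (SE, adjusted p = 9.6e-44), and for R35K that of Clec4a1, -3.98 ± 0.13 (SE, adjusted p = 6.05e-33). The medians were -1.95 and -2.75, against 0.04 and -0.048 over all genes.

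The partner chains of the receptors rose as well. Fcer1g, which carries the signalling motif for Dectin-2, MCL and Mincle, was higher by 4.18 ± 0.12 (SE, adjusted p = 1.71e-32) at 1 hpi and 8.43 ± 0.077 (SE, adjusted p = 9.72e-57) at 120 hpi in wild-type cells. Tyrobp, the partner of MDL-1, was higher by 4.29 ± 0.082 (SE, adjusted p = 8.08e-41) and 8.98 ± 0.063 (SE, adjusted p = 1.59e-61). At 18 hpi both were higher in R35A than in wild-type cells, by 1.81 ± 0.052 and 1.70 ± 0.04, and in R35K cells by 2.32 ± 0.052 and 2.18 ± 0.043. At 120 hpi neither was called different between R35A and wild-type cells. Syk, the kinase that both chains recruit and that B cells use as well, took another course. In wild-type cells its change from 0 hpi was -1.90 ± 0.036 (SE, adjusted p = 3.58e-42) at 18 hpi and 0.41 ± 0.033 at 120 hpi, the latter of which was not called. Its level at 18 hpi was higher in R35A by 0.89 ± 0.036 (SE, adjusted p = 5.17e-27) and in R35K by 1.35 ± 0.036 (SE, adjusted p = 2.45e-37). Card9, the adaptor below Syk, was higher by 5.13 ± 0.10 (SE, adjusted p = 3.46e-42) at 120 hpi in wild-type cells.

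Of a list of 27 adaptor and signalling genes of the pathway, all tested, 18 had risen and 1 had fallen by 120 hpi in wild-type cells, 17 and 1 in R35A and 17 and 1 in R35K cells, with list medians of 1.68, 1.13 and 1.15. Of all genes, 23.1% to 25.4% rose and 38.5% to 40.2% fell in these comparisons. Besides the genes above, Fgr (8.79), a Src family kinase of phagocytes, rose in wild-type cells, and Src was the gene that was lower (-2.79). At 1 hpi 7 were higher and 3 lower in wild-type cells, 10 and 5 in R35A and 12 and 3 in R35K cells, where the shares of all genes were 10.7% and 9.27%, 18.3% and 18.9%, and 15.5% and 17.4%. At 18 hpi 14 of 27 were higher in R35A than in wild-type cells and 0 lower, and 21 were higher in R35K cells and 0 lower, where 6.9% and 10.5% of all genes were higher. At 120 hpi 2 were higher and 3 lower in R35A than in wild-type cells, and 1 and 3 in R35K cells, where the shares of all genes were 12.4% and 6.38% for R35A and 9.87% and 3.97% for R35K.

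Of 41 other C-type lectin receptor genes, 22 passed the filter in the fit of wild-type and R35A cells and 20 in that of R35K cells. In wild-type cells 11 of the 22 had risen and 7 had fallen by 120 hpi, where 23.1% of all genes rose and 40.2% fell, and the median log2 change was 1.72 against -0.36 over all genes. The largest fitted rises were those of Mgl2 (12.8) and Clec10a (12.0), galactose-type lectins of macrophages, and of Mrc1 (10.2), the mannose receptor. Clec4f (-5.85) and Clec2h (-5.37) fell. In wild-type cells Mgl2 had 0 reads at 0 hpi and Clec2h had 0 reads at 120 hpi. The size of their fitted changes therefore depends on the settings of the fit. In R35A cells 11 were higher and 8 lower, where 24.2% and 39% of all genes were, and in R35K cells 11 and 5, where 25.4% and 38.5% were. At 18 hpi 5 of the 22 were higher in R35A than in wild-type cells and 0 lower, and for R35K 8 were higher and 1 lower. Over all genes, 6.9% were higher and 3.17% lower for R35A and 10.5% and 4.78% for R35K.

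Within the cluster, the genes that are not among the 9 differed widely in level. Clec4b1, between Clec4a3 and Clec4a2, went in wild-type cells from 0.0685 CPM to 31.5 CPM by 120 hpi. Clec4a4 had at most 0.735 CPM in any group, from 118 reads over the 36 libraries, and Clec4b2 at most 0.14 CPM, from 12 reads. Clec4a4 and Clec4b2 thus stayed under 1 CPM in all 18 groups, beside the rising members.

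Over the 18 group means, log2(CPM + 1) of the 9 genes was correlated with Pearson's r from 0.88, for Clec12a with Clec4d, to 0.992, for Clec4a3 with Clec4a2 and with Clec4a1. Among 10960 other genes, the mean course of the 9 was most like those of Lgals3 (r = 0.9988), Fyb (0.9982), Myo1f (0.9979), Naip2 (0.9978) and Tyrobp (0.9975). For single members the gene with the most similar course was Fcer1g for Clec4a2 (0.9973), Csf1r for Clec4d (0.998), Itgam for Clec5a (0.9983), Rab7b for Clec4a3 (0.998), Rbm47 for Clec4a1, Ptafr for Clec4e, Nfam1 for Clec4n, Alox5ap for Clec7a and Pstpip2 for Clec12a, the last 5 between 0.9943 and 0.9949. These are descriptions over groups that share one time axis and the same libraries.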

How the data were processed

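The authors sorted the infected cells, made stranded libraries of polyadenylated RNA, ran FastQC on the reads and mapped them to mm10 with STAR 2.5.0a, whose counts per gene they took. The deposited count tables hold whole, unnormalized counts of 40354 genes, and the R35K libraries have tables of their own. The deposited log2 tables hold 19067 genes, as the authors' DESeq2 1.14.1 normalized counts on a log2 scale. Within 0.01 of a count, 100% of their values gave back log2 of the count divided by a size factor, plus 1, with size factors within 0.647% of those computed here over the 36 libraries. The annotation release and the strand setting of the counts are not given in the sources used here. Groups came from the samples' titles, and 0 columns were left unused.

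The tests were made in R 4.3.3 with edgeR 4.0.16 and limma 3.58.1 (filterByExpr, TMM, quasi-likelihood test, Benjamini-Hochberg adjustment over all genes tested). A first fit held the 24 libraries of wild-type and R35A cells (16988 genes), another the 12 R35K libraries (16434) and a further fit all 36 libraries for R35K against the other constructs (17277). The thresholds of 1.5-fold and p of at most 0.05 follow the study's methods, which do not say whether p was adjusted. Standard errors were derived from the F statistic, as the absolute log2 change over the square root of F. For large changes from few reads, such as those from 0 hpi, they are smaller than counting error and do not measure the spread. Intervals cover counting error only. The scripts were tested on simulated data with known changes. Alternatives included the Wald test of DESeq2 1.42.0, other scalings, filters and thresholds, a fit of the compared groups alone or of all 36 libraries, a replicate block, changes from 0 hpi in place of levels, and each library left out in turn.

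The members, gene lists and tests were chosen with earlier results of these data known. Named were the 9 members, Syk, Card9, Fcer1g and Tyrobp, for each list the 2 to 4 called genes with the largest change in wild-type cells at 120 hpi, and the genes of most similar course (5 for the mean of the members and 1 for each member). Src, Clec4f, Clec2h, Fn1, Lum, Col1a1 and the cluster's other genes were named after their values were seen, and some list genes are not reported here by name. A library's depth of 13044456 to 23131776 counts sets the precision at 0 hpi, where some members had under 5 reads. The study calls the 2 replicates of a group biological, and the titles number them. Whether they came from different mice or infections is not stated in its methods, and batches are not given in the sources used here. Variance between replicates was 1.09 to 2.38 times counting noise by group (median 1.32). The p-values rest on the spread between the 2 libraries of a group, pooled over all groups of a fit, which are assumed to vary alike.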

Additional observations from a re-analysis of the deposited data

Results flagged for a closer look

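The difference between each mutant and wild-type cells changed from 18 to 120 hpi for all 9 receptor genes, by a test of that change itself (edgeR's quasi-likelihood test, adjusted p from 1.84e-46 to 1e-18). For R35A the change of the log2 difference was -3.79 for Clec4a1, -1.95 for Clec4a2, -2.95 for Clec4a3, -2.38 for Clec4d, -3.96 for Clec4e, -1.05 for Clec4n, -1.63 for Clec5a, -1.48 for Clec7a and -1.73 for Clec12a. For R35K it was -3.98 for Clec4a1, -2.73 for Clec4a2, -3.39 for Clec4a3, -2.75 for Clec4d, -3.85 for Clec4e, -1.80 for Clec4n, -2.25 for Clec5a, -2.38 for Clec7a and -2.94 for Clec12a. The R35A and R35K values share their wild-type libraries. No member is tested for a sample that stands apart, since each group has 2 libraries.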

How the results depend on the processing

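Of 4834 recomputed log2 changes of single genes, 4768 stayed on their side of the thresholds, 57 were no longer called, 8 became calls and 1 call reversed. Turns of sign between values that were not called are held among the 4768. Examples at 120 hpi are Clec4n (-0.38) and Clec12a (0.35) in R35K against wild-type cells, by the change from 0 hpi. The reversal was that of Clec4a3, R35K against R35A at 3 hpi, at -0.04884 where the change from 0 hpi was compared, which was not called. The cause was not tested. For R35K against R35A, the 26 called combinations of gene and timepoint became 8 of 45 by the change from 0 hpi, 5 with a 2-fold threshold and 41 with no fold threshold. For 1 to 3 and 1 to 18 hpi, the 18 calls became 6 and 39 under those thresholds. Counts from 0 hpi (45 of 45 in each construct), from 18 to 120 hpi (26 of 27), of R35A and of R35K against wild type (39 of 54 each) and of changed construct differences (18 of 18) stayed within 1.5 times under all alternatives run.

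Leaving out each library in turn gave 45 calls from 0 hpi in each construct, 26 from 18 to 120 hpi, 38 to 39 for R35A and for R35K against wild type, 25 to 26 for R35K against R35A, 15 to 19 for 1 to 3 and 1 to 18 hpi, and 18 for the changed construct differences. A group left with 1 library is then assumed to vary like the others.

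Replicate numbers are shared across groups, but the replicate differences of 10677 genes had a median Pearson r of -0.00907 over 153 pairs of groups, with 8 pairs above 0.1, so they were not taken as pairs. With the replicate block, the counts of calls were 45, 45 and 45 from 0 hpi, 26 from 18 to 120 hpi, 39 and 39 against wild type, 26 between the mutants, 18 for 1 to 3 and 1 to 18 hpi and 18 for the changed construct differences. DESeq2's size factors moved the median of all genes by -0.105 to 0.158 on the log2 scale and library totals by -0.342 to 0.0573, each by over 0.1 in 6 of 44 comparisons. Depth limits the 3 Clec4a genes at 0 hpi.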
